A study of Solanum lycopersicum with 3 samples.

Results

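The 10 enzyme-coding loci of carotenoid synthesis studied here were followed in leaf primordia of the tomato mutant slmp. The members were taken by locus identifier from a list that pairs each identifier with an enzyme name: PSY1, PSY2, PDS, Z-ISO, ZDS, CRTISO, LCYB, LCYE, BCH1 and ZEP. All 10 were present among the 21717 loci of the deposited table. The design holds 1 group with 3 replicate libraries: genotype slmp, from slmp-1 plants kept in cycles of 18 h light and 6 h dark, and mock-treated with a single water spray 1 h before collection. SlMP is the tomato counterpart of MONOPTEROS, an auxin response factor. A library pooled 15 primordia of the leaf numbered 5 at stage P5, in which P counts plastochrons, the intervals between leaf initiations. All libraries share the genotype, stage and spray, so the values describe the mutant primordium, and no wild-type or other treatment group was analysed here. Each is a bulk pool of primordia, in which fewer cells that express a gene and less RNA per cell cannot be told apart. The labels do not say whether the libraries came from separate sets of plants, so the spread between them may be partly technical.

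Carotenoids are plastid pigments made from the colourless compound phytoene. Phytoene synthase makes phytoene, desaturases and isomerases turn it into red lycopene, and lycopene cyclases close its ends into rings to give the carotenes. Hydroxylation and epoxidation then give the xanthophylls. In leaves these pigments harvest light and protect the photosystems from excess light, and they are also the source of the hormones abscisic acid and strigolactone. In ripening tomato fruit the same chain stops mostly at lycopene. Tomato carries separate isoforms for several steps. PSY1 is known as the synthase of fruit and petals and PSY2 as that of green tissue, while LCYB and BCH1 are known as leaf-type isoforms of the cyclase and the hydroxylase.

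RNA was read with QuantSeq, a 3′ end method that gives about 1 fragment for each transcript whatever its length, so levels of different genes were compared without division by length. Signal outside any annotated feature, 21.2 to 22.7% of the deposited signal in each library, was counted for no gene. Whether the share lost in this way differed between the genes compared was not tested. Levels are given in scaled values, the read signal as deposited; the values look like counts divided by a factor for each library, although no source used here states the step. Each scaled value was a whole multiple of a step particular to its library, of 0.948, 1.04 and 1.08 in replicates 1, 2 and 3. The loci summed to 2746410, 2574146 and 2499843 such steps. Over all loci the median of the mean scaled values was 33.3, with quartiles at 10.5 and 88.6.

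All 10 enzymes of the pathway were detected, meaning a scaled value of at least 10 in every library. That background share was 68.7% of all listed loci. The enzymes had mean scaled values from 14.9 to 91.6, a 6.13-fold range, with a median of 56.6, and 9 of the 10 lay above the median of all loci. Together they held 543.1, 516.2 and 600.2 scaled units, most in replicate 3 and least in replicate 2. The whole chain from phytoene to the epoxidised xanthophylls was thus represented, at moderate levels.

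**Figure D1:**
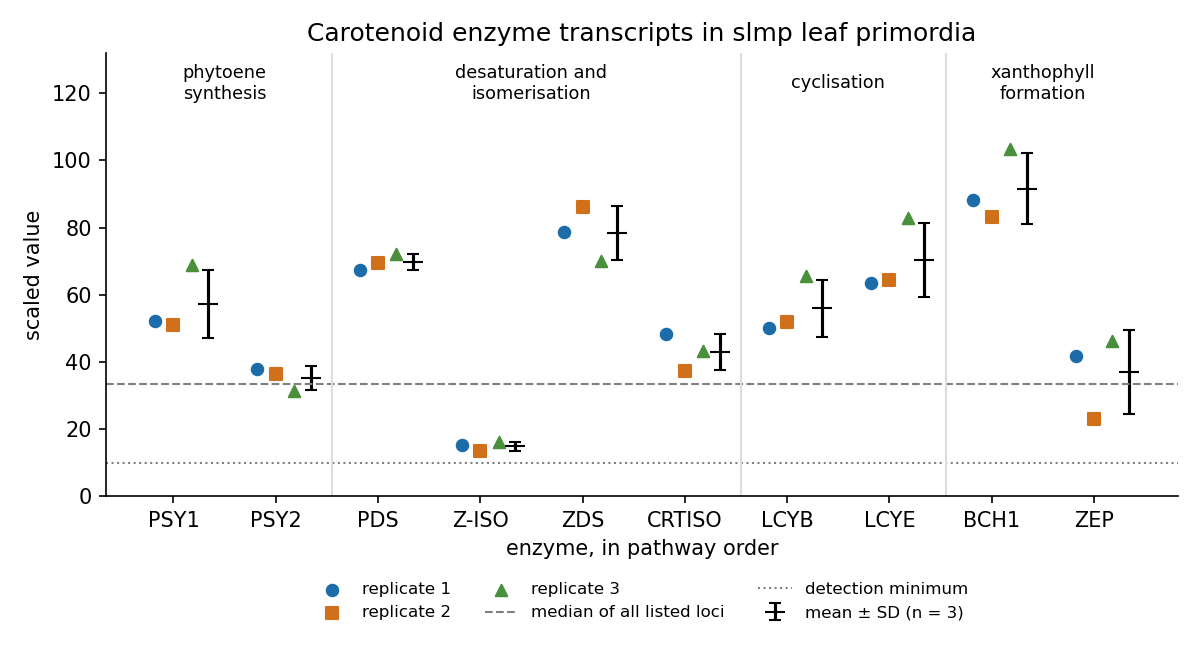
Scaled values (y axis) of the 10 carotenoid enzymes in pathway order (x axis), 1 point for each of 3 replicate libraries, with the mean and SD beside them. Z-ISO is lowest, at 13.5 to 16.2, BCH1 is highest on average, and the ZEP point of replicate 2 sits below those of the other libraries.

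Phytoene synthesis, the step that commits carbon to carotenoids, was represented by both synthases, and the isoform known from fruit was the higher of them in these leaf primordia. PSY1 (Solyc03g031860, on chromosome 3) had scaled values of 52.1, 50.9 and 69.0 in replicates 1, 2 and 3, a mean of 57.3 ± 10.1 (SD, n = 3). PSY2 (Solyc02g081330, chromosome 2) had scaled values of 37.9, 36.4 and 31.2, a mean of 35.2 ± 3.49. The lowest PSY1 value lay above the highest PSY2 value, so the isoforms did not overlap. Replicate 3 held the highest PSY1 value and the lowest PSY2 value.

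Within a library PSY1 was 1.38, 1.40 and 2.21 times as high as PSY2 in replicates 1, 2 and 3. The mean log2 ratio of PSY2 over PSY1 was -0.68 ± 0.38 (SD, n = 3), with PSY1 higher in 3 of 3 libraries. By an exact two-sided sign-flip permutation test p was 0.25 (adjusted p = 0.3125 over 5 ratios), and 0.25 is the smallest p that 3 libraries can give. PSY1 took 57.9% of the steps of both synthases in replicate 1 (95% exact Clopper-Pearson interval 47.3 to 68.0%). Its share was 58.3% in replicate 2 (47.1 to 69.0%) and 68.8% in replicate 3 (58.4 to 78.0%). An even split therefore lay inside the interval in replicates 1 and 2 and outside it in replicate 3. The intervals were not adjusted for the number of ratios and libraries. These intervals take 1 step as 1 read and cover counting error only. Whether reads shared between the synthases were lost to the filter on alignment quality was not tested.

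Loci recorded as markers of ripening fruit were low or not listed in most cases, while some were at the level of the synthases. Of 13 recorded loci, 8 were listed and 3 of these were detected, with a median scaled value of 11.9 over the 8 against 33.3 for all loci. The 3 detected loci had means of 46.9, 47.1 and 86.0 scaled units, above that median of all loci and around the PSY1 mean of 57.3. Of the 8, 3 were listed at 0 in at least 1 library, and 1 of them in 2 libraries. The summed scaled values of the 8 were 223.7, 174.5 and 225.2 in replicates 1, 2 and 3. Their part in the PSY1 level was not tested.

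The desaturases and isomerases that turn phytoene into lycopene differed in level. PDS (Solyc03g123760, chromosome 3), which begins the desaturation of phytoene, had scaled values of 67.3, 69.6 and 72.2. Its mean was 69.7 ± 2.45 (SD, n = 3). This was the narrowest relative spread of the 10 enzymes. ZDS (Solyc01g097810, chromosome 1), which completes the desaturation, had scaled values of 78.7, 86.2 and 70.0, a mean of 78.3 ± 8.09. PDS and ZDS overlapped, and ZDS was the higher in 2 of 3 libraries. The mean log2 ratio of PDS over ZDS was -0.16 ± 0.18 (exact sign-flip permutation p = 0.5, adjusted p = 0.5). It was -0.26 without replicate 3 and -0.09 without replicate 2, so its size rested on single libraries.

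Z-ISO (Solyc12g098710, chromosome 12) isomerises the intermediate between both desaturases and was the lowest of the 10 enzymes in every library. Its scaled values were 15.2, 13.5 and 16.2, a mean of 14.9 ± 1.34 (SD, n = 3), from 16, 13 and 15 steps. The 95% counting interval of the replicate 2 value ran from 7.19 to 23.1 scaled units. Its level lay at percentile 31.2 to 33.6 of all loci in the 3 libraries. CRTISO (Solyc10g081650, chromosome 10), which isomerises the product of ZDS into all-trans lycopene, had scaled values of 48.3, 37.4 and 43.1, a mean of 42.9 ± 5.48. CRTISO was 3.19, 2.77 and 2.67 times as high as Z-ISO in replicates 1, 2 and 3, with no overlap between them. The mean log2 ratio of Z-ISO over CRTISO was -1.46 ± 0.13 (exact sign-flip permutation p = 0.25, adjusted p = 0.3125). CRTISO took at least 72.7% of the steps of both isomerases in each library, and the lowest bound of its 95% exact intervals was 58.9%.

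The lycopene cyclases studied here stand at the branch of the pathway, where LCYE leads towards lutein and LCYB acting alone leads towards β-carotene. Other cyclase isoforms were not part of this comparison. LCYB (Solyc04g040190, chromosome 4) had scaled values of 50.2, 51.9 and 65.7, a mean of 56.0 ± 8.498 (SD, n = 3). LCYE (Solyc12g008980, chromosome 12) had scaled values of 63.5, 64.4 and 83.0, a mean of 70.3 ± 11.0. Both were highest in replicate 3, and their ranges overlapped across libraries.

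Within a library their ratio was nearly the same each time. LCYE was 1.26, 1.24 and 1.26 times as high as LCYB in replicates 1, 2 and 3. The mean log2 ratio of LCYB over LCYE was -0.32 ± 0.02 (SD, n = 3), the smallest SD of the 5 ratios, with LCYE higher in 3 of 3 libraries (exact sign-flip permutation p = 0.25, adjusted p = 0.3125). LCYB took 44.2%, 44.6% and 44.2% of the steps of both cyclases. Each of the 95% exact intervals, such as 35.1 to 53.5% in replicate 1, still included an even split, and they were much wider than the spread of the 3 shares.

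Xanthophyll formation held the highest enzyme and the most variable. BCH1 (Solyc06g036260, chromosome 6), which hydroxylates β-carotene towards zeaxanthin, had scaled values of 88.1, 83.1 and 103.4, a mean of 91.6 ± 10.6 (SD, n = 3). It lay at percentile 73.9 to 78.0 of all loci. ZEP (Solyc02g090890, chromosome 2), which epoxidises zeaxanthin towards violaxanthin, had scaled values of 41.7, 22.8 and 46.3, a mean of 37.0 ± 12.4. The ZEP value in replicate 2 was the lowest, and its highest and lowest values differed 2.03-fold, against at most 1.36-fold for each of the other 9 enzymes.

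BCH1 was 2.11, 3.64 and 2.23 times as high as ZEP in replicates 1, 2 and 3, and their values did not overlap. The mean log2 ratio was 1.34 ± 0.42 (SD, n = 3), with BCH1 higher in 3 of 3 libraries (exact sign-flip permutation p = 0.25, adjusted p = 0.3125). It was 1.10 without replicate 2. BCH1 took 67.9% of the steps of both in replicate 1 (95% exact interval 59.4 to 75.6%), 78.4% in replicate 2 (69.2 to 86.0%) and 69.1% in replicate 3 (60.7 to 76.6%). All of these intervals lay above an even split.

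**Figure D2:**
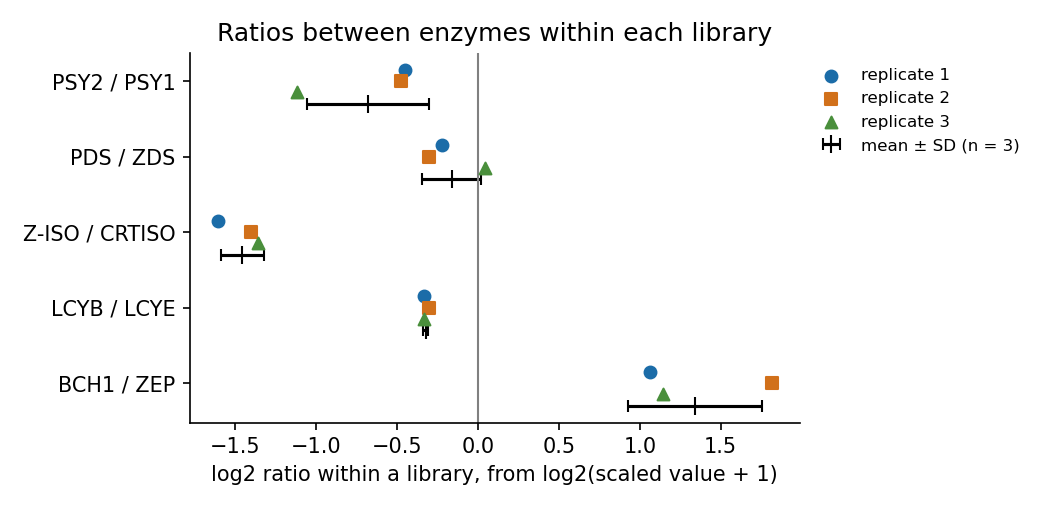
Log2 ratios between pairs of enzymes within each library (x axis), 1 row for each pair, with points for the 3 replicates and the mean and SD in black. The LCYB to LCYE ratio is nearly the same in all 3 libraries at -0.32 ± 0.02, PSY2 lies below PSY1 in all 3, and PDS and ZDS fall on either side of 0.

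Ordered by mean scaled value, the enzymes ran from BCH1 through ZDS, LCYE, PDS, PSY1, LCYB, CRTISO, ZEP and PSY2 down to Z-ISO. Of the 9 steps between neighbours in this order, 2 were wider than the spread between libraries: LCYB lay above CRTISO, and PSY2 above Z-ISO, with no overlap. The ranges of the other neighbours overlapped across libraries. Within libraries, PDS lay above PSY1 in 3 of 3, and the rest of these neighbours changed order between libraries. Among all 45 pairs of enzymes, 34 pairs did not overlap over the 3 libraries. That is 75.6%, near the background of 79.5% of all pairs of listed loci. Among detected loci within the level range of the enzymes, 54.4% of pairs did not overlap.

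Summed by stage, the 2 synthases reached 92.5 ± 6.82 scaled units (SD, n = 3) and the 4 desaturases and isomerases 205.9 ± 4.05. The 2 cyclases reached 126.2 ± 19.5 and the 2 xanthophyll enzymes 128.5 ± 21.9. These sums cover the 10 enzymes studied here only. They leave out other loci recorded for the pathway, the highest of which had a mean of 156.6 scaled units. Per locus these sums came to 46.2, 51.5, 63.1 and 64.3 scaled units. The sum of the desaturation stage varied least between libraries, at 209.5, 206.7 and 201.5 in replicates 1, 2 and 3. The cyclases summed to 113.7, 116.3 and 148.7, and the xanthophyll enzymes to 129.8, 105.9 and 149.8.

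The median spread between the replicate libraries was smaller for these enzymes than for the detected loci. The median SD of log2(value + 1) was 0.17 over the 10 enzymes, against 0.27 over all 14910 detected loci and 0.30 over detected loci within the level range of the enzymes. The median level was 56.6 scaled units over the enzymes, against 60.0 and 39.5 over these sets, so the sets were not matched for level. Without replicate 3 the median SD over the enzymes was 0.05. The coefficient of variation (CV) over the libraries was below the CV that counting alone gives, with 1 step taken as 1 read, for 5 of the 10 enzymes. The background was 28.5% of detected loci, and 33.9% of detected loci within the level range of the enzymes. With only 10 enzymes, the difference from these shares was not tested. PDS had a CV of 3.52% against a counting CV of 12.1%. Z-ISO had a CV of 8.99% against a counting CV of 26.1%. ZEP was at the other end, with a CV of 33.7% against a counting CV of 16.6%. A CV from 3 libraries is itself imprecise.

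**Figure D3:**
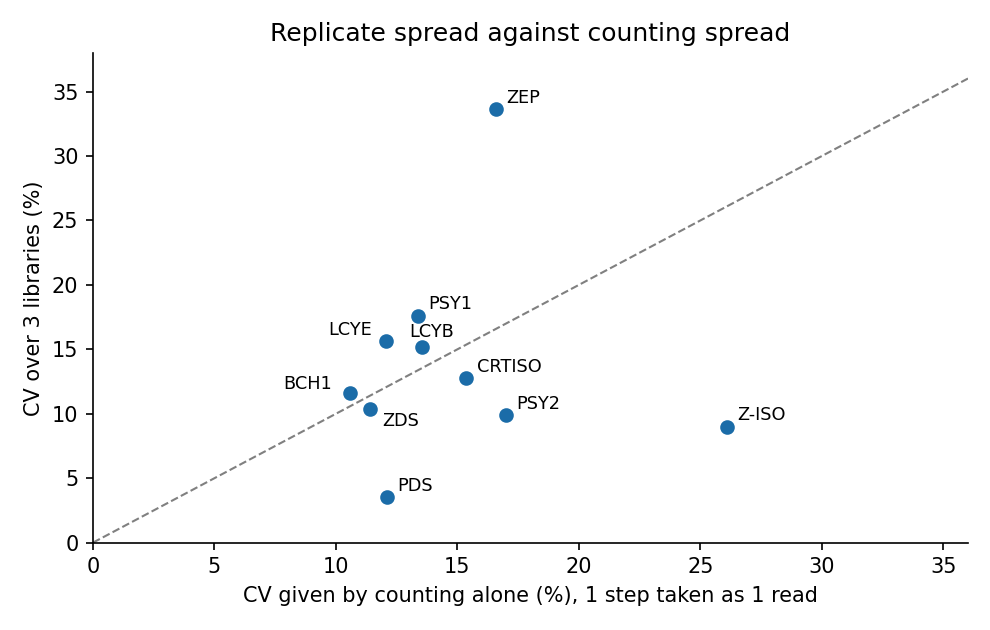
CV of each enzyme over 3 libraries (y axis, %) against the CV that counting alone gives (x axis, %), with the dashed line where both are equal. PDS and Z-ISO lie far below the line, and ZEP lies above it at 33.7% against 16.6%.

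The enzymes tended to be highest in replicate 3. Of the 10, 7 had their highest value there, against a background of 36.5% of detected loci, and 5 had their lowest value in replicate 2, against 33.3%. PSY2 and ZDS went the other way, with their lowest values in replicate 3. The median deviation of the enzymes from their own mean, on the log2 scale, was -0.02, -0.12 and 0.15 in replicates 1, 2 and 3. Over all detected loci the same medians were 0.00, 0.01 and 0.00. These small medians changed with the libraries kept. Without replicate 3, replicates 1 and 2 were at 0.02 and -0.02. Without replicate 2, replicates 1 and 3 were at -0.06 and 0.06. Without replicate 1, replicates 2 and 3 stayed at -0.14 and 0.14. With 1 library left out, the deviations of the remaining libraries mirror each other, so each such pair is a single value. ZEP deviated most, at 0.23, -0.61 and 0.38. 

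Loci recorded as markers of photosynthetic leaf, listed from general knowledge as genes of the Rubisco small subunit and chlorophyll-binding proteins, moved between the libraries as well. All 12 were detected, with a median of 2320 scaled units and a lowest mean of 516.3. The list was chosen with earlier results of these data known, so these levels do not test the tissue label. All 12 had their lowest value in replicate 2, and 10 had their highest in replicate 3. Their summed scaled values were 31791, 19091 and 40502 in replicates 1, 2 and 3, and their median deviations 0.12, -0.69 and 0.57 on the log2 scale. PSY1, Z-ISO, BCH1 and ZEP had the same order of libraries as the summed list, lowest in replicate 2 and highest in replicate 3. The share of all detected loci with this order was not computed, so no link to the list is read from it. Apart from ZEP, the enzymes deviated by only -0.19 to 0.14 in replicate 2. The part of this marker difference in the enzyme values was not tested. The list of floral and meristem markers gave 1 listed locus of 7 recorded, at 126.8 ± 45.9 scaled units.

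**Figure D4:**
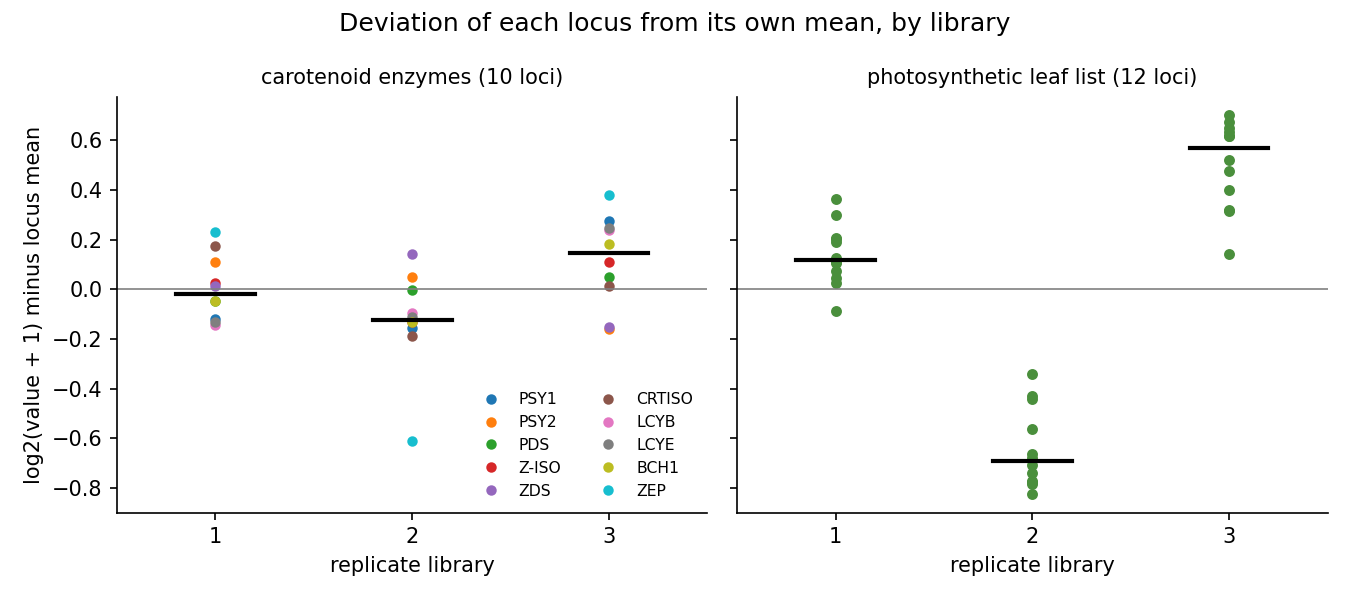
Deviation of each locus from its own mean on the log2(value + 1) scale (y axis) in the 3 replicate libraries (x axis), for the 10 carotenoid enzymes (left) and the 12 loci of the photosynthetic leaf list (right). Black bars are medians, at -0.12 and -0.69 in replicate 2, where ZEP is the lowest enzyme at -0.61.

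Other loci of the pathway were taken from lists of identifiers recorded from general knowledge of tomato locus numbering. No source used here pairs these identifiers with names, so they are given as lists. Precursor supply, the plastid route that makes the building blocks of phytoene, had 12 of 13 recorded loci in the table. Of the 12, 11 were detected. The median over the 12 was 86.4 scaled units, with a highest mean of 396.2 ± 5.25 (SD, n = 3) and a lowest of 2.66, and 9 lay above the median of all loci. The top value exceeded that of BCH1, the highest of the 10 enzymes.

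Further loci of the pathway itself, recorded as other isoforms, later steps and helper proteins, numbered 9 of 10 in the table. Of these 7 were detected, and the median over all 9 was 29.8 scaled units. The highest of them had a mean of 156.6 ± 34.1 (SD, n = 3), above BCH1 without overlap between libraries, and the next had 68.4. The lowest mean was 4.22, and 1 of the 9 was listed at 0 in at least 1 library. The 10 enzymes thus do not hold the highest level recorded for the pathway.

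Carotenoid cleavage, which yields abscisic acid precursors, strigolactone precursors and volatiles, had 6 of 9 recorded loci in the table, of which 4 were detected. The median over the 6 was 34.8 scaled units and their means ran from 2.13 to 98.1. Light and plastid regulators had all 7 recorded loci in the table and 5 detected, with a median over the 7 of 31.6 and means from 4.28 to 56.5. The medians of both lists lay near the 33.3 of all loci.

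**Figure D5:**
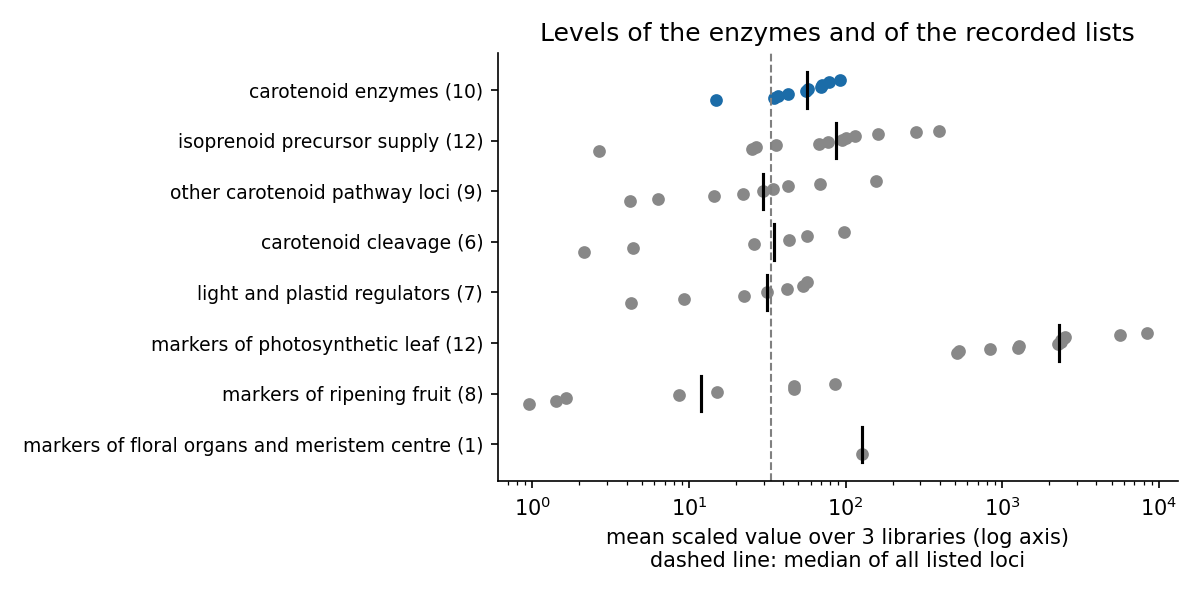
Mean scaled value over 3 libraries (x axis, log scale) of each locus in the 10 carotenoid enzymes (blue) and in the recorded lists (grey), with the number of listed loci in parentheses and a black bar at each median. The enzymes cluster between 14.9 and 91.6, and the photosynthetic leaf list lies far to the right with a median of 2320.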

How the data were processed

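RNA of 3 libraries of slmp leaf primordia was prepared with a QuantSeq 3′ kit, per the labels' protocols. Bowtie2, HTSeq and DESeq2 are named in the submitters' processing notes, without versions or roles. Genome build and strand setting: not given in the sources used here. In the deposited table there is 1 signal value for each locus and library; how the authors scaled it is not stated. All values were whole multiples of a step (tolerance 0.001), 0.5 times the smallest value above 0 in the column, but 0 values of 1 step occurred, so no count model was fitted. The level of 3 steps was 2.84, 3.12 and 3.23 in replicates 1, 2 and 3. The 3 summary rows were left out.

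Enzyme names came with the list of members. In the RefSeq gene table (assembly SLM_r2.1), which lists 0 of these identifiers, 9 of the 10 names matched a symbol or synonym, and in all 9 the chromosome matched that in the identifier; BCH1 had no match. None of the 20 neighbouring loci was within 3% of its enzyme in every library. Members and lists were chosen with earlier results of these data known. Named genes were the 10 members. Ratios were taken on log2(value + 1), with an exact sign-flip test and Benjamini-Hochberg adjustment over 5 ratios. No ranking by likeness of pattern was made, since 3 replicates of 1 group give none. Functions were tested on simulated data. Alternatives were other pseudocounts, scalings, detection minimums, no filter, and leaving out each replicate. Python 3.11.15, numpy 2.4.6, pandas 2.3.3, SciPy 1.17.1 and matplotlib 3.10.9 were used.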

Additional observations from a re-analysis of the deposited data

Results flagged for a closer look

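Part of the deposited signal belongs to no locus and entered none of the values above. In every library at least 21.2% of it was recorded as outside any feature. Alignments of too low quality took at least 21.4%, and alignments that met several features at least 2.43%. Whether any of it came from the carotenoid enzymes was not tested, and there was no control library to set it against. With 3 libraries, single outlying samples were not tested.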

How the results depend on the processing

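Of 200 combinations of a result and an alternative setting, 199 moved by less than the spread between replicates, stayed within 1.5 times for counts, or kept their sign for ratios. The exception was the median SD of the enzymes, which lay between 0.051 and 0.22 on leaving out single replicates, with the low value of 0.051 without replicate 3. It was 0.22 without replicate 1 and 0.14 without replicate 2; the cause was not tested. The median deviation in replicate 1, -0.02 over all libraries, was 0.01 with equal library totals and 0.02 without replicate 3. This change of sign counted as unmoved, because median deviations were judged against the median SD of 0.17, larger than any of them. Leaving out 1 of 3 libraries cannot move a mean by its full SD, so those outcomes for the enzyme levels were fixed in advance. All 5 ratios kept their sign under pseudocounts of 0.25 and 5 and without each replicate. Only the PDS to ZDS ratio could have changed sign, since each other ratio had the same sign in every library. All 10 enzymes stayed detected at a minimum of 5 and without each replicate, and 9 at a minimum of 20. A lower minimum or a dropped replicate cannot lose a detected locus, so those outcomes for the enzymes were fixed in advance. Dropping a replicate can likewise only add pairs of enzymes without overlap. Their number was 34 over all libraries, and 36, 37 and 40 without replicates 1, 2 and 3. Equal library totals moved no library by more than 0.03 on the log2 scale, and a median of ratios by no more than 0.015. The 5 ratios were paired within libraries, and no comparison between groups was possible because the design has 1 group. Depth limits Z-ISO most, at 13 to 16 steps in each library.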
